A study of Homo sapiens with 6 samples.

Results

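The genes described here are the human replication-dependent histone genes, as far as their mRNAs were recovered in poly(A) RNA-seq. They were chosen by symbol alone: H1-1 to H1-6 and every numbered H2AC, H2BC, H3C and H4C gene, with pseudogenes left out. The name table held 69 such genes, and 43 of them could be matched to a row among the 56632 genes of the deposited tables. Of these, 33 rows were matched by Ensembl gene ID and 10 through their transcript IDs. The other 26 genes were not matched and are not analysed here, which does not show that they are absent. The transcript ID of H2BC8, for example, is in the deposited tables, but no row was matched to that gene. The rows covered 6 of 6 H1, 13 of 17 H2A, 12 of 18 H2B, 6 of 13 H3 and 6 of 15 H4 genes. By their match to GRCh38, 32 lay on chromosome 6, 10 on chromosome 1 and 1 on chromosome 12.

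All libraries came from HCT116, an established human colorectal cancer cell line. Cells of the siCTRL group received a negative control siRNA, and cells of the siMatrin3 group received a pool of siRNAs against MATR3, which encodes the nuclear RNA-binding protein Matrin3. The labels give 72 hours and then 48 hours of siRNA for both groups, the study's methods word the harvest time differently, and each group had 3 libraries that the study describes as biological triplicates. The comparison asks whether the histone mRNAs recovered in poly(A) RNA-seq changed in level after Matrin3 depletion.

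Replication-dependent histone genes supply the core histones H2A, H2B, H3 and H4 and the linker histone H1 that package newly made DNA, and most of their transcription falls in S phase. They are the known exception among animal mRNAs: most of their transcripts have no poly(A) tail and end just after a conserved stem-loop. The stem-loop is bound by SLBP, and the U7 snRNP guides the cleavage behind it. Some of these genes also make longer transcripts that are cleaved at an ordinary poly(A) signal further downstream, and oligo(dT)-selected libraries recover those and miss most of the stem-loop-ended mRNA. The values below therefore describe what poly(A) RNA-seq recovered, and total histone mRNA was not measured. Whether the reads of a given gene came from transcripts with a poly(A) tail was not tested.

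The stem-loop was the sequence feature that all these genes shared, so it is shown first. The commonest 16-base form, found by counting words at the ends of GENCODE 44 transcripts, occurred in 40 of the 69 genes, and a form with at most 3 differences from it occurred in all 69. In 66 of the 69, the shortest coding transcript with the stem-loop ended within 10 bases of it. The pattern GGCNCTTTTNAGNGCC was present in 65 of the 69 genes. Among 115533 other coding transcripts it stood in the last 100 bases of 3, which belonged to H3-4, H3-7 and ENSG00000282988. The stem-loops of the 5 most abundant histone genes and of H4C11, the H4 gene that passed the count filter, are given 5′ to 3′ as DNA letters of the transcript strand with the stem-loop in capitals.
H2BC12: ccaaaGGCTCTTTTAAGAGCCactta
H1-2: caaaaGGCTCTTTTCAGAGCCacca
H2AC25: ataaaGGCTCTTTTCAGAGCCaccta
H2BC5: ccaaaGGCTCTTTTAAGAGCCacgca
H2AC6: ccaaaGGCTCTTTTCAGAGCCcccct
H4C11: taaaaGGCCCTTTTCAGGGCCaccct
These stretches lie in GRCh38 at chr6:27146361-27146386 for H2BC12, chr6:26055740-26055764 for H1-2, chr1:228457364-228457389 for H2AC25, chr6:26158582-26158607 for H2BC5, chr6:26124664-26124689 for H2AC6 and chr6:27824454-27824479 for H4C11, in the 3′ end of each transcript, on the minus strand for the first 3 and on the plus strand for the others. H1-2, H2AC25 and H2AC6 carried the commonest form, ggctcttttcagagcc. H2BC12 and H2BC5 carried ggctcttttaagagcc, the form of 9 genes in all, and H4C11 carried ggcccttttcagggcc, the form of 10 genes in all.

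Depth ran from 40808173 to 54185650 expected counts (RSEM's estimate of the reads of a gene) per library. MATR3 was at 186, 180 and 176 TPM (transcript abundance per length, scaled to a common total) in siCTRL and at 95.2, 112 and 111 TPM in siMatrin3, which gave a log2 fold change of −0.93 with SE 0.0647 and an edgeR adjusted p of 7.67e-05. The 7 colorectal epithelial marker genes summed to 2947 to 3097 TPM in siCTRL and 2691 to 2917 TPM in siMatrin3, and 1 of them, the keratin gene KRT18, was lower (log2 fold change −0.15, edgeR adjusted p = 0.0330). The leukocyte, endothelial, erythroid and neuronal marker lists each summed to at most 1.21 TPM in any library. The 5 fibroblast markers summed to 13.6 to 16.1 TPM in siCTRL and 14.9 to 19.0 TPM in siMatrin3, with 3 of the 5 at 0 in all libraries.

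The histone mRNAs were scarce in these libraries. Of the 43 genes, 8 had no count in any library (H1-1, H1-6, H2AC1, H2AC8, H2BC1, H2BC10, H4C2 and H4C6), 27 had a count in every library, 9 reached a mean of 1 TPM over the 6 libraries and 5 reached 5 TPM. These 5 were H2BC12, H1-2, H2AC25, H2BC5 and H2AC6, and they held 77.2% of the summed TPM of all 43 genes. H2BC12, the most abundant, had a higher mean TPM than 73.0% of the 16786 genes tested, and H2AC6 a higher one than 49.4%. By this measure the leading histone mRNAs sat at the middle of the range or above it. The count filter kept 16 of the 43 genes. The 27 genes it removed had at most 13.5 expected counts in any library and a mean of at most 0.963 TPM and were not tested. H2AC13, named after its values were seen, was the gene among them whose TPM groups did not overlap, with 10.8, 11.5 and 7.98 counts in siCTRL and 5.35, 3.87 and 3.31 counts in siMatrin3.

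**Figure D1:**
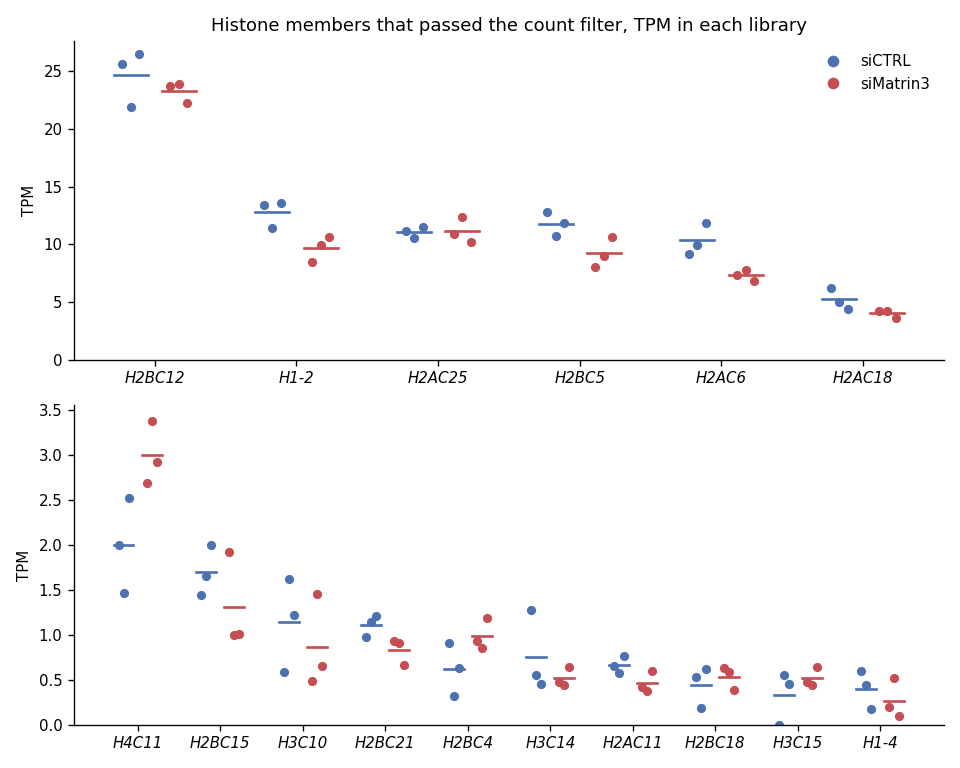
TPM of the 16 histone genes that passed the count filter, by library (points: blue siCTRL, red siMatrin3, 3 each, and horizontal bars for the means, with separate linear axes from 0 for the 6 highest genes above and the other 10 below). The siMatrin3 points of H1-2, H2BC5, H2AC6 and H2AC18 lie below all their siCTRL points, while those of H2BC12 and H2AC25 overlap.

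The linker histone H1 compacts chromatin by binding the nucleosome and the DNA between nucleosomes. H1-2 (ENSG00000187837), a single-transcript gene whose model ends 5 bases past its stem-loop, was at 13.4, 11.4 and 13.6 TPM in siCTRL and at 8.45, 9.96 and 10.6 TPM in siMatrin3. All siMatrin3 libraries were below all siCTRL libraries. Its log2 fold change was −0.39 (SE 0.115), which missed the threshold in the edgeR quasi-likelihood test, adjusted over all genes by Benjamini-Hochberg (adjusted p = 0.0556). It passed without siCTRL 2 (log2 fold change −0.46, edgeR adjusted p = 0.0402). With any other single library left out it did not pass (edgeR adjusted p from 0.0825 to 0.181). H1-4, the other H1 gene tested, was at 0.59, 0.44 and 0.17 TPM in siCTRL and at 0.19, 0.52 and 0.09 TPM in siMatrin3. The groups overlapped, and with 2 to 15 counts per library the error was wide (log2 fold change −0.60, SE 0.618, edgeR adjusted p = 0.591). H1-3 and H1-5 had at most 2 counts in a library.

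H2A and H2B pair as a dimer and are the outer part of the nucleosome core. H2AC6 (ENSG00000180573) was the histone gene that fell: it was at 9.18, 9.97 and 11.9 TPM in siCTRL and at 7.37, 7.75 and 6.80 TPM in siMatrin3. The groups did not overlap, and its log2 fold change of −0.37 (SE 0.0822) passed the threshold (edgeR adjusted p = 0.0183), so that relative to library size it fell by 22.8%. The call was lost without siCTRL 3 (adjusted p = 0.0789), without siMatrin3 2 (0.0662) or without siMatrin3 3 (0.0565), and when the deposited transcript lengths entered the fit as an offset (0.0522), with the direction kept in each. H2AC25 (ENSG00000181218) was at 11.2, 10.5 and 11.5 TPM in siCTRL and at 10.9, 12.4 and 10.2 TPM in siMatrin3. Its groups overlapped, and its log2 fold change was 0.03 (SE 0.126, edgeR adjusted p = 0.908). H2AC18 was at 6.25, 5.01 and 4.42 TPM in siCTRL and at 4.26, 4.22 and 3.65 TPM in siMatrin3, with no overlap. Its log2 fold change did not pass the threshold (−0.35, SE 0.186, edgeR adjusted p = 0.277). H2AC11 was lower, at 0.65, 0.57 and 0.76 TPM against 0.42, 0.37 and 0.59 TPM, with overlapping groups (log2 fold change −0.51, SE 0.236, edgeR adjusted p = 0.199).

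Among the H2B genes, H2BC12 (ENSG00000197903) was the most abundant histone mRNA of the libraries, at 25.6, 21.9 and 26.5 TPM in siCTRL and at 23.7, 23.9 and 22.3 TPM in siMatrin3. The groups overlapped, and the log2 fold change was −0.03 with the smallest error of any histone gene tested (SE 0.0715, edgeR adjusted p = 0.827). H2BC5 (ENSG00000158373) was at 12.8, 10.7 and 11.8 TPM in siCTRL and at 8.02, 8.99 and 10.6 TPM in siMatrin3. Its groups did not overlap, with siMatrin3 3 just below siCTRL 2, and its log2 fold change of −0.35 (SE 0.110) missed the threshold (edgeR adjusted p = 0.0660). H2BC21 was at 0.97, 1.14 and 1.21 TPM against 0.93, 0.91 and 0.66 TPM, again without overlap (log2 fold change −0.38, SE 0.184, edgeR adjusted p = 0.224). H2BC15, at 1.44, 1.65 and 2.0 TPM against 1.92, 1.0 and 1.01 TPM, had overlapping groups and a log2 fold change of −0.31 (SE 0.271). H2BC18, at 0.53, 0.18 and 0.62 TPM against 0.63, 0.58 and 0.38 TPM, also overlapped and lay at 0.01 (SE 0.426). H2BC4 went the other way, at 0.91, 0.32 and 0.63 TPM against 0.93, 0.85 and 1.19 TPM, and its log2 fold change was 0.68 with SE 0.367 and an edgeR adjusted p of 0.283. Its TPM groups overlapped too, by siMatrin3 2 against siCTRL 1.

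H3 and H4 form the central tetramer of the nucleosome, and among the rows matched here, 6 of 13 H3 and 6 of 15 H4 genes, their mRNAs had low levels. H3C10 was at 0.58, 1.62 and 1.22 TPM in siCTRL and at 0.48, 1.45 and 0.65 TPM in siMatrin3, with overlapping groups (log2 fold change −0.39, SE 0.512). H4C11 was at 2.0, 1.46 and 2.52 TPM in siCTRL and at 2.69, 3.38 and 2.92 TPM in siMatrin3. It was the histone gene whose siMatrin3 libraries all lay above its siCTRL libraries, and its log2 fold change of 0.57 (SE 0.296) did not pass the threshold (edgeR adjusted p = 0.258) on 9.66 to 23.2 counts per library. The other H4 genes were not tested.

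H3C14 and H3C15 are near-identical copies whose reads were divided unevenly in 1 library. H3C14 was at 80.8, 27.1 and 26.4 expected counts in siCTRL and at 30.7, 23.0 and 35.4 in siMatrin3, and H3C15 had the same number as H3C14 in 5 libraries but 0 in siCTRL 1. Their models shared 99.2% and 100% of their 50-base words with another gene, each other being the main partner. Alone, H3C14 had a log2 fold change of −0.55 (SE 0.384) and H3C15 one of 0.72 (SE 0.673). Without siCTRL 1 the log2 fold change of both was 0.09. Summed, the pair held 80.8, 54.2 and 52.8 counts in siCTRL and 61.4, 46 and 70.9 in siMatrin3, and the log2 fold change was −0.06 (SE 0.213, edgeR adjusted p = 0.891). Of all 43 genes, 28 shared at least 1 word of 50 bases with another gene and 12 shared at least 50% of their words. These included H2BC12 with 57.2%, H2AC18 with 100% and H4C11 with 92.1%. Their main partners were ENSG00000274559, H2AC19 and H4C12, so the levels of H2BC12, H2AC18 and H4C11 are uncertain between copies. The shares of H1-2, H2AC6, H2BC5 and H2AC25 were 0%, 1.5%, 10.1% and 0.6%. In GENCODE 44, H2BC4 also overlaps exons of HFE on the opposite strand, and H2AC6 overlaps those of an unnamed gene, ENSG00000291336, on its own strand.

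Across the 16 genes tested, 1 fell and 0 rose. Over all genes, 5.97% were called lower and 5.05% higher, so 1 of 16 is near the background. No histone gene was higher at an unadjusted p under 0.05, and DESeq2 and limma also called 0 higher. The 3 lower at an unadjusted p under 0.05 were H2AC6, H1-2 and H2BC5. That cut was passed by 4364 of the 16786 genes tested, both directions together, which is a larger share than 3 of 16. The log2 fold change was negative in 11 of the 16, against 50.3% of all genes tested. In 5 of the 16, every siMatrin3 TPM was below every siCTRL TPM, against 15.2% of all genes, and in 1 every siMatrin3 TPM was above, against 9.99%. The median log2 fold change was −0.35 for the 16 histone genes and −0.00106 for all genes tested. The median SE was 0.253 for the histone genes against 0.0708 for all genes, so single histone genes were measured with more error than most. By family, 2 of 2 H1, 3 of 4 H2A, 4 of 6 H2B, 2 of 3 H3 and 0 of 1 H4 genes had a negative log2 fold change.

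**Figure D2:**
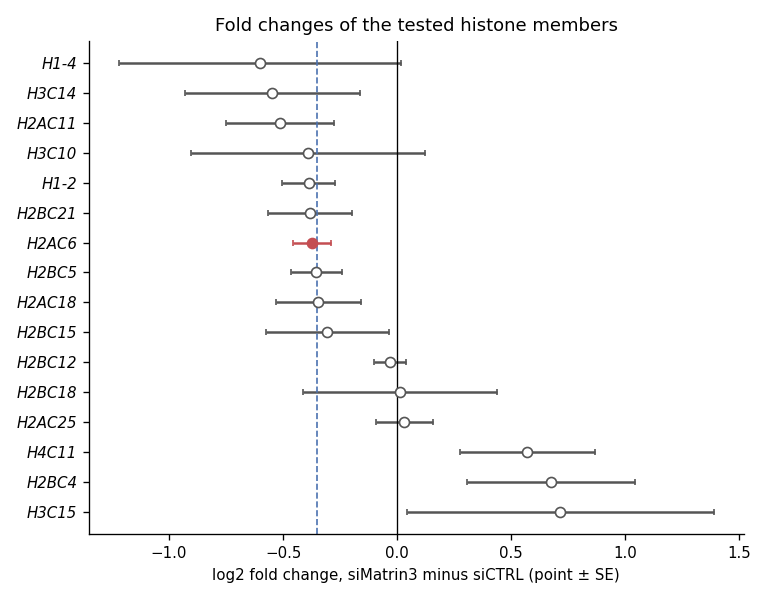
Log2 fold changes of the 16 tested histone genes (siMatrin3 minus siCTRL, points with bars of 1 SE, a dashed line at their median of −0.35). H2AC6, filled red, is the gene past the threshold, 11 of the 16 lie below 0, and the widest bars belong to H1-4, H3C10 and H3C15.

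Per library, the median log2 CPM (counts scaled to library size) of the 16 genes relative to the siCTRL mean was 0.04, −0.09 and 0.09 in siCTRL and −0.27, −0.12 and −0.24 in siMatrin3. All siMatrin3 libraries were below all siCTRL libraries by this measure. The median log2 fold change was −0.20 without siCTRL 1 and −0.22 without siMatrin3 3. Several genes moved without siCTRL 1. H3C14 turned from −0.55 to 0.09, H1-4 went from −0.60 to −0.19 and H2AC18 from −0.35 to −0.20, while H2AC6 went from −0.37 to −0.41. In these bulk libraries, fewer cells that express a histone gene and less of its RNA per cell cannot be told apart.

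Family sums join copies that share reads, although a TPM sum still moves with the length of the copy that takes them, and H2AC19 and H4C12, the main partners of H2AC18 and H4C11, had no matched row. The 43 genes together summed to 93.0, 84.6 and 95.0 TPM in siCTRL and to 77.0, 81.7 and 79.0 TPM in siMatrin3, without overlap, or 90.9 ± 5.51 against 79.2 ± 2.38 TPM (SD, n = 3). The log2 ratio of the means was −0.20, and −0.24 without H2BC12. An exact two-sided permutation test of 3 against 3 libraries cannot give less than p = 0.1, so no test is given for these sums. The H1 sum went from 13.2 ± 1.19 to 9.99 ± 1.15 TPM and the H2A sum from 30.7 ± 0.889 to 25.9 ± 0.878 TPM (SD, n = 3 each), both without overlap. The H2B sum went from 41.2 ± 3.96 to 37.5 ± 0.488 TPM, the H3 sum from 3.01 ± 0.491 to 2.53 ± 0.361 TPM and the H4 sum from 2.72 ± 0.225 to 3.29 ± 0.392 TPM, all with overlapping groups. The H3 log2 ratio was −0.25 in TPM and −0.10 in CPM. The H4 log2 ratio of 0.28 rested on H4C11: it was −1.29 without that gene and 0.03 in CPM.

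**Figure D3:**
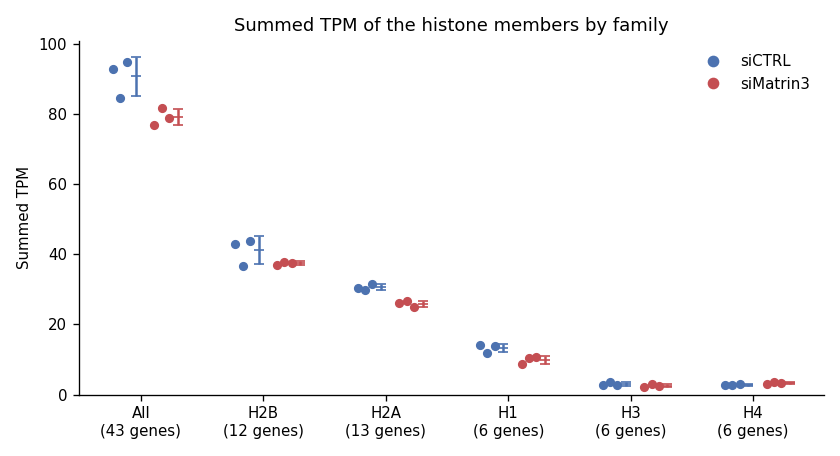
Summed TPM of the histone genes by family in each library (blue siCTRL, red siMatrin3), with the mean and SD of 3 libraries to the right of the points. The siMatrin3 points of all 43 genes, of H2A and of H1 lie below the siCTRL points, and those of H2B, H3 and H4 overlap.

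The deposited tables give a transcript length for each gene, averaged over its transcripts by their estimated abundance in that library, and for some histone genes it was far above the length of the form that ends at the stem-loop. In its highest library, the length exceeded that up to the end of the stem-loop by at least 100 bases in 14 of the 43 genes, of which 10 passed the count filter. Their median total over the 6 libraries was 146 expected counts, against 9.30 in the other 29 genes, of which 6 passed. Expected counts are not divided by transcript length, so longer models gather more of them at the same abundance. In TPM the medians were closer, at 0.598 and 0.137. A mean of 1 TPM was reached by 4 of the 14 genes and 5 of the other 29. In the lowest library the excess reached 100 bases in 11 genes, of which 9 passed, since H2BC11, H2BC15 and H3C4 fell short of it in some libraries. H2AC11 and H2BC21 had the greatest excess, with 1751 and 1728 bases in every library, and H3C14 and H3C15 had 1139 and 1143. H2AC6 ranged from 543 to 809 bases over the libraries, H2BC12 from 288 to 330 and H2BC5 from 182 to 221. The separation was not complete, as H1-2, H2AC25 and H2AC18 had deposited lengths within 21 bases of the stem-loop's end and still held 1435, 805 and 395 counts in total. The excess sets the lengths of the tables against stem-loop positions from GENCODE 44, and the 2 annotations can differ. The transcript of H2AC25 had 496 bases in the tables. Under the same ID in GENCODE 44 it has 895 and runs 390 bases past the stem-loop. That of H3C10 runs 769 bases past it there. In GENCODE 44, 9 of the 43 genes had a transcript at least 100 bases longer than the stem-loop-ended form with the poly(A) signal AATAAA in its last 50 bases, among them H2AC6, H2BC5 and H2BC21. That of H2AC6 has 2 exons and holds the stem-loop 1128 bases before its end, while that of H2BC5 has 2 exons and lacks the stem-loop letters, so a length excess does not always mean bases past the stem-loop. These lengths are those of the annotation, and where the reads of a gene ended was not measured.

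**Figure D4:**
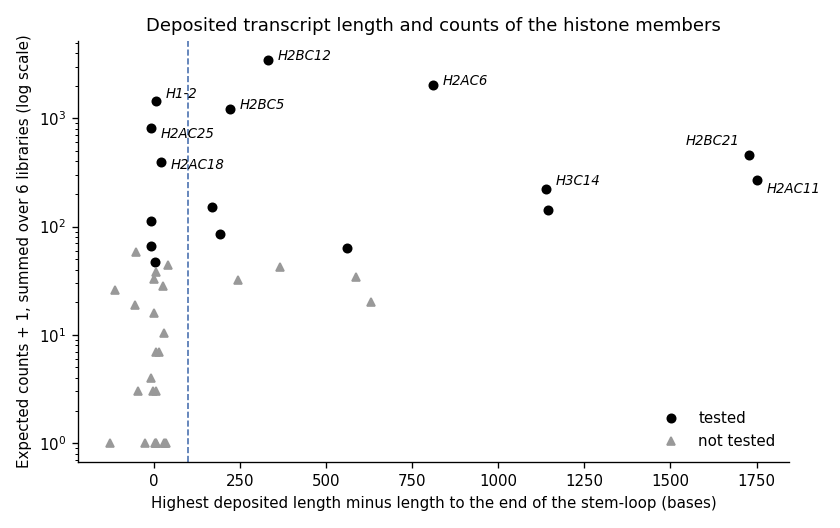
Expected counts summed over the 6 libraries, plus 1 (log scale), against the number of bases by which the deposited transcript length, in its highest library, exceeds the length up to the end of the stem-loop, for the 43 histone genes (circles passed the count filter, triangles did not, dashed line at 100 bases). Of the 14 genes right of the line 10 were tested, against 6 of the 29 left of it. The counts are not divided by transcript length.

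For genes with several annotated transcripts, the deposited length is an average weighted by their estimated abundance, so it moves when the mix of short and long forms moves. H2BC5, H2AC6 and H2BC12 had enough counts and transcripts for this test, and none passed its threshold. A smaller change in their mix is not excluded, as the test called few genes at all. H2AC6 had lengths of 1207, 1159 and 1056 bases in siCTRL and 1215, 1097 and 1322 bases in siMatrin3, which overlapped (log2 difference 0.08, SE 0.0880, limma adjusted p = 0.976). H2BC5 had 676, 697 and 690 bases against 702, 685 and 663 (−0.01, SE 0.0255, limma adjusted p = 1). H2BC12 had 798, 820 and 778 bases against 795, 820 and 820 (0.02, SE 0.0247, limma adjusted p = 0.975). Over the 12152 genes of this test 1 was called, or 0.00823%, and 768 had an unadjusted p under 0.05. The 3 histone genes were not among either.

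Many of these genes lie head to head and share their promoter DNA. RefSeq promoters on GRCh38.p14 were given for 40 of the 43 genes, and in the 250 bases before the start, 7 pairs of 1 H2A and 1 H2B gene on opposite strands shared 214 to 247 bases. H2AC6 and H2BC4 shared 245 of them and were the pair with both genes tested. H2AC6 fell while H2BC4, on 5 to 19 counts per library, had a positive log2 fold change that did not pass the threshold. The difference between them was not tested. H2AC11 and H2BC11 (247 bases), H2AC20 and H2BC21 (235 bases) and H2AC25 with H2BC26 (229 bases) had 1 tested gene each.

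Histone promoters are known for CCAAT boxes, TATA boxes and, in H2A and H2B genes, an octamer that POU2F1 binds. Motifs were searched as letters on both strands, and none of them contains another. CCAAT stood in the window of 36 of 40 histone genes (90.0%, against 37.0% of 27305 genes), and TATAAA in 28 (70.0% against 13.1%). The octamer ATTTGCAT stood in 18 (45.0% against 2.03%): 9 of 12 H2A, 8 of 12 H2B, 1 of 5 H3, 0 of 6 H1 and 0 of 5 H4 genes. The H3 match lay in a window of H3C4 that is also the window of H2AC7. Head-to-head genes share matches too, since both strands were searched, so these are counts of genes and not of separate sites. The octamer and the TATAAA of H2AC6, for example, were also the octamer and TATAAA matches of H2BC4. TTTGGCGC, a form of the E2F site, stood in 0 of 40 (0.680% of all genes). The windows of the 3 genes with the smallest p are shown, 5′ to 3′ on the gene's strand and ending at the base before the start, with matches to any of the motifs on either strand in capitals.
H2AC6: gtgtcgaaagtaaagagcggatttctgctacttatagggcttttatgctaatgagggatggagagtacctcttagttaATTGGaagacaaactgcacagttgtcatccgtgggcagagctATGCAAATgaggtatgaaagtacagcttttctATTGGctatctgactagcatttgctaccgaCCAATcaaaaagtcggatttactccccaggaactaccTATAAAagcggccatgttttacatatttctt
H1-2: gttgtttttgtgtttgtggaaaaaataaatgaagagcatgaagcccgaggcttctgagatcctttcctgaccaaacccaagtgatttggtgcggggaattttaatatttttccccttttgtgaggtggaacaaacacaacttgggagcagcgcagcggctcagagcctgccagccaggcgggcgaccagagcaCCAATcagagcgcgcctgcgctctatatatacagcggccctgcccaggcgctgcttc
H2BC5: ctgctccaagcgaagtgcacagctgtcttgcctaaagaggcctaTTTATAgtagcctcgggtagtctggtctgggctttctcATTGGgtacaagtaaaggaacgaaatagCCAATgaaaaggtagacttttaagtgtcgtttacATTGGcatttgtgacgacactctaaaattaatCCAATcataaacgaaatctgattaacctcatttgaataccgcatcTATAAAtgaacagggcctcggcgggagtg
They lie at chr6:26123922-26124171 on the plus strand for H2AC6, chr6:26056471-26056720 on the minus strand for H1-2 and chr6:26157872-26158121 on the plus strand for H2BC5. The H2AC6 window held the CCAAT box, the TATA box letters and the octamer, that of H2BC5 held both boxes, and that of H1-2 held the CCAAT box.

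The replication-independent histone genes, most of which are made through the cell cycle and have ordinary poly(A) tails, are the closest relatives of these genes. Of this list 12 were tested, and the median log2 fold change was −0.02. H3-3B, which encodes the replacement histone H3.3, went from 1096 ± 40.7 to 1024 ± 16.5 TPM (SD, n = 3 each) and did not pass (log2 fold change −0.07, edgeR adjusted p = 0.275). H2AZ1, which encodes the variant H2A.Z, and H3-3A, the other H3.3 gene, had log2 fold changes of 0.01 and 0.02, with edgeR adjusted p = 0.944 and 0.856. These 3 were named after their values were seen, as abundant genes of the list.

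For the genes that act on histone mRNA or histones, counts are read against the 5.05% of all genes called higher. Of 24 genes for histone gene transcription and 3′ end processing, 2 rose and 0 fell, which is near that share, with a median log2 fold change of 0.08 and 0 to 2 calls when libraries were left out. These were SLBP (0.16, SE 0.0418, edgeR adjusted p = 0.0347), whose protein holds the stem-loop, and SRRT (0.20, SE 0.0482, edgeR adjusted p = 0.0269), which encodes the cap complex partner ARS2. Of 16 genes for histone mRNA translation and decay, 3 rose and 0 fell: PNPT1 (0.18, edgeR adjusted p = 0.0221), LSM4 (0.18, edgeR adjusted p = 0.0259) and PRKDC (0.21, edgeR adjusted p = 0.0290), with a median of 0.07 and 0 to 4 calls when libraries were left out. Of 23 canonical cleavage and polyadenylation genes edgeR called 0, with a median of 0.04, and DESeq2 called 1 and limma 0. In this list 3 were higher at an unadjusted p under 0.05, which 4364 of the 16786 genes tested had in either direction. Of 27 histone chaperone genes 2 rose and 0 fell, again near the background, with a median of 0.08: the histone importer gene IPO4 (0.21, edgeR adjusted p = 0.0146) and TONSL (0.28, edgeR adjusted p = 0.0201), whose protein binds new histones at replication forks. Over all alternatives, calls ranged from 0 to 6 for transcription and 3′ end processing, 0 to 4 for translation and decay and 0 to 5 for chaperones, with 0 in each by limma on log2(TPM + 1).

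S phase genes are given beside the histone genes because histone mRNA is made mainly in that phase. Of 26 tested, 13 rose and 0 fell, against a background of 5.05% called higher, 26 of 26 had a positive log2 fold change, and their median was 0.18. CCNE1, the cyclin of the G1 to S transition, was at 24.0 ± 0.369 TPM in siCTRL and 30.7 ± 1.04 TPM in siMatrin3 (SD, n = 3 each), with 0.34 as its log2 fold change and an edgeR adjusted p of 0.00219. The replicative helicase genes MCM5 (0.30, edgeR adjusted p = 0.00228), MCM6 (0.26, edgeR adjusted p = 0.00472) and MCM2 (0.24, edgeR adjusted p = 0.00656) also rose. SLBP is in this list and in that of 3′ end processing. The number of S phase genes called ranged from 5 to 14 when libraries were left out and was 3 with limma on log2(TPM + 1). The part of S phase gene levels in the histone values was not tested.

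**Figure D5:**
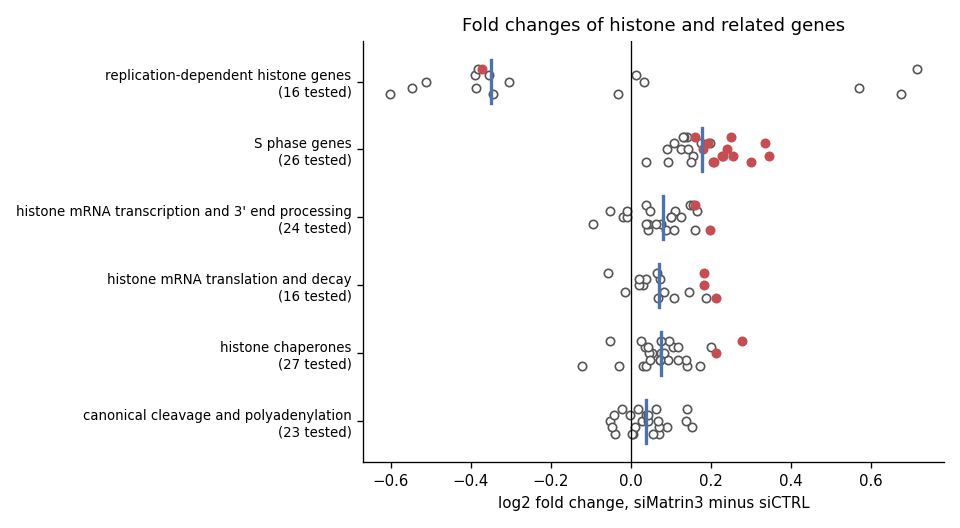
Log2 fold changes (siMatrin3 minus siCTRL) of the 16 tested replication-dependent histone genes and of 5 related gene lists; each circle is a gene, filled red where edgeR's adjusted p was under 0.05, and the blue bar is the list median. The histone genes spread from −0.60 to 0.72 around −0.35, and the 26 S phase genes lie from 0.04 to 0.34.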

How the data were processed

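Poly(A) RNA of 6 HCT116 libraries was prepared with TruSeq Stranded mRNA and sequenced in pairs by the authors. Per the submitters' processing notes, reads were trimmed with cutadapt, aligned with STAR 2.5.1 to hg19 and counted with RSEM; the methods name another STAR version, and the strand setting of the counting was not given in the sources used here. The deposited tables hold, per gene and library, expected counts (RSEM's estimates, which divide reads shared by near-identical genes), TPM, FPKM (not used here) and 2 transcript lengths. The authors' TPM are divided by length and have a common total.

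After rounding, genes were kept by filterByExpr, library sizes took TMM factors, and edgeR 4.0.16 in R 4.3.3 gave two-sided quasi-likelihood tests without covariates, with Benjamini-Hochberg adjustment over 16786 genes and a threshold of 0.05. The common biological coefficient of variation was 5.98%. Weighted length was tested with limma 3.58.1 in genes with at least 2 transcripts and at least 50 counts in every library. Nothing in the labels says that libraries came from separate cultures, so p-values measure the spread between these libraries.

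Gene names came from GENCODE 44 (GRCh38), a different build from that of the tables, by gene ID or, for 488 genes, by transcript ID. In all, 89.1% of rows had a name, and the rest held 0.790% of counts. Coordinates and sequences are of GRCh38, stem-loops and models from GENCODE 44 and promoters from RefSeq. The histone genes and gene lists were chosen with earlier results of these data known. Named were genes past the threshold or the count filter, the 5 highest by TPM, and up to 4 called genes of each list. A gene that this rule names is not reported here.

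Alternatives tried were other scaling factors (RLE, upper quartile), other filters (none, 1 CPM in 3 libraries), a replicate block, leaving out each library or replicate 1 of both groups, a length offset, DESeq2 1.42.0 (the study's tool), limma on log2 TPM with a pseudocount of 1 or 0.1, a stricter threshold of 0.01, other count minimums for length (10 and 100) and, for sums, CPM and the highest gene left out. Matching by gene ID alone and summing H3C14 with H3C15 were chosen after seeing the data. The edgeR and length steps were tested on simulated data.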

Additional observations from a re-analysis of the deposited data

How the results depend on the processing

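The count of 1 histone gene lower became 3 with no filter and with the replicate block, and 0 with the length offset, limma on log2(TPM + 1) or log2(TPM + 0.1), or an adjusted p under 0.01. Leaving out single libraries gave 0 to 2 lower, and no alternative gave any higher. H2AC6 kept a negative log2 fold change under all 16 alternatives, from −0.49 to −0.33. With no filter, H1-2 (edgeR adjusted p = 0.0129) and H2BC5 (0.0463) also passed, and with the replicate block they had adjusted p = 0.0311 and 0.0490. Over the whole table, 1849 genes were called, and this count also rose, to 2595 with no filter and 2716 with the replicate block. It was 706 with the length offset and 437 and 429 with limma on log2(TPM + 1) and log2(TPM + 0.1). At an adjusted p under 0.01 it was 561, without replicate 1 of both groups 1216, and without single libraries 759 to 1599. The median log2 fold change of the histone genes was −0.19 with limma on log2(TPM + 1), −0.25 without replicate 1 of both groups and −0.37 to −0.20 without single libraries.

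Signs turned for values near 0 or on few counts. Without single libraries, H2AC25 ran from −0.055 (siMatrin3 2) to 0.10, H2BC12 from −0.086 to 0.000612 (siCTRL 3), H3C14 from −0.82 to 0.087 (siCTRL 1) and H2BC18 from −0.25 (siMatrin3 1) to 0.28. Without replicate 1 of both groups, H3C14 was at 0.14 and H2BC18 at −0.21, and H2BC18 was at −0.00664 with upper quartile scaling. The weighted length of H2BC5 ran from −0.030 to 0.012 and turned positive without siCTRL 2 or siMatrin3 3. The causes were not tested. Of the other values of single histone genes, 227 kept their sign and their side of the threshold.

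Whether replicate numbers pair the libraries was not settled: the correlations of same-numbered libraries' deviations were 0.18, 0.09 and 1e-04. Both siCTRL 1 and siCTRL 2 correlated best with their own number, and siCTRL 3 did not. The replicate block raised the calls over the whole table to 2716, and those among the S phase genes from 13 to 20. Counts under 50 per library limit most histone genes to wide errors.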
